A study of Mus musculus with 12 samples.

Results

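The genes described here are 9 genes of the surface and cytosol of mature neutrophils, namely Ly6g, S100a8, S100a9, Fpr1, Fpr2, Itgam, Itgb2, Asprv1 and Retnlg. They were chosen by name, as every probe the array files assign to one of these names, which gave 11 probes out of 56605 and 9 gene names out of 37074. Fpr2 and Itgam had 2 probes each and the other genes had 1. RNA came from the cecum of C57BL/6 mice in 4 groups of 3. One group had a sham operation, with tissue taken at 0 h, and the other groups had the cecum cauterized with bipolar forceps through a midline incision under anesthesia and gave tissue 3, 12 or 72 h later. What the sham operation comprised is not given in the sources used here. Each mouse had 1 one-colour array. A level below is the log2 intensity of a probe minus the 75th percentile of its array, so 0 is the intensity that 75% of spots fall under, and levels of different probes are not on a common scale. A probe was called when it differed more than 2-fold with a limma adjusted p under 0.05 over all probes, and a gene was counted by its brighter probe.

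The labels give every mouse as male, but the Xist probe was well above background on 12 of 12 arrays and the 4 probes of the Y-linked genes Ddx3y and Eif2s3y on none, which goes against the label. Of the probes of 2 further Y-linked genes, 1 of 6 for Kdm5d was above background on 12 of 12 arrays and 1 of 3 for Uty on 1 array, and the sex of the mice was not settled here. Between 60.2% and 65.2% of an array's probes passed the scanner software's test of being well above background, and saturated spots numbered 0. The 8 arrays of the sham group, the 3 h group and 12 h replicates 1 and 2 were on one slide. The 3 arrays of 72 h and 12 h replicate 3 were on the other, so 72 h and slide can be told apart only through that 12 h array. Sham tissue was taken at 0 h and the same 3 sham arrays serve in every comparison with sham, so time since surgery and cauterization cannot be told apart.

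Neutrophils leave the blood within hours of sterile tissue damage, and in the mouse they are usually recognised by Ly6G, a small protein held on the outer membrane by a lipid anchor. S100A8 and S100A9 pair up as calprotectin, which fills much of the neutrophil cytosol, binds calcium, zinc and manganese and is released as an alarm signal. FPR1 and FPR2 are G protein-coupled receptors for formylated peptides of bacteria and mitochondria, and the integrin chains CD11b (Itgam) and CD18 (Itgb2) join as Mac-1, through which neutrophils adhere to endothelium and bind complement fragments. Asprv1 encodes a retroviral-like aspartic protease best known from the upper epidermis, and Retnlg encodes resistin-like gamma, a secreted protein made in mouse bone marrow and neutrophils.

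At 3 h, 7 of the 9 genes were called higher than in sham, against 3.14% of all gene names called higher and 4.33% lower. At 12 h, 8 of 9 were called higher, against 3.95% of all higher and 5.33% lower. At 72 h, 7 of 9 were called higher, against 4.5% of all higher and 4.4% lower, and none was called lower at any of the 3 times. The same shares of all gene names apply to every count against sham below. From 12 to 72 h, 4.49% of all gene names were called higher and 2.94% lower. The median of the 9 log2 differences from sham was 3.58, 4.18 and 3.92 at 3, 12 and 72 h, while the median over all gene names was 0.06, -0.04 and -0.15. S100a8, S100a9, Fpr1, Fpr2, Asprv1 and Retnlg were called at all 3 times, Itgb2 was called at 12 and 72 h, Ly6g was called at 3 and 12 h, and Itgam by its brighter probe at none. In whole tissue, more cells of a type and more RNA per cell cannot be told apart.

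**Figure D1:**
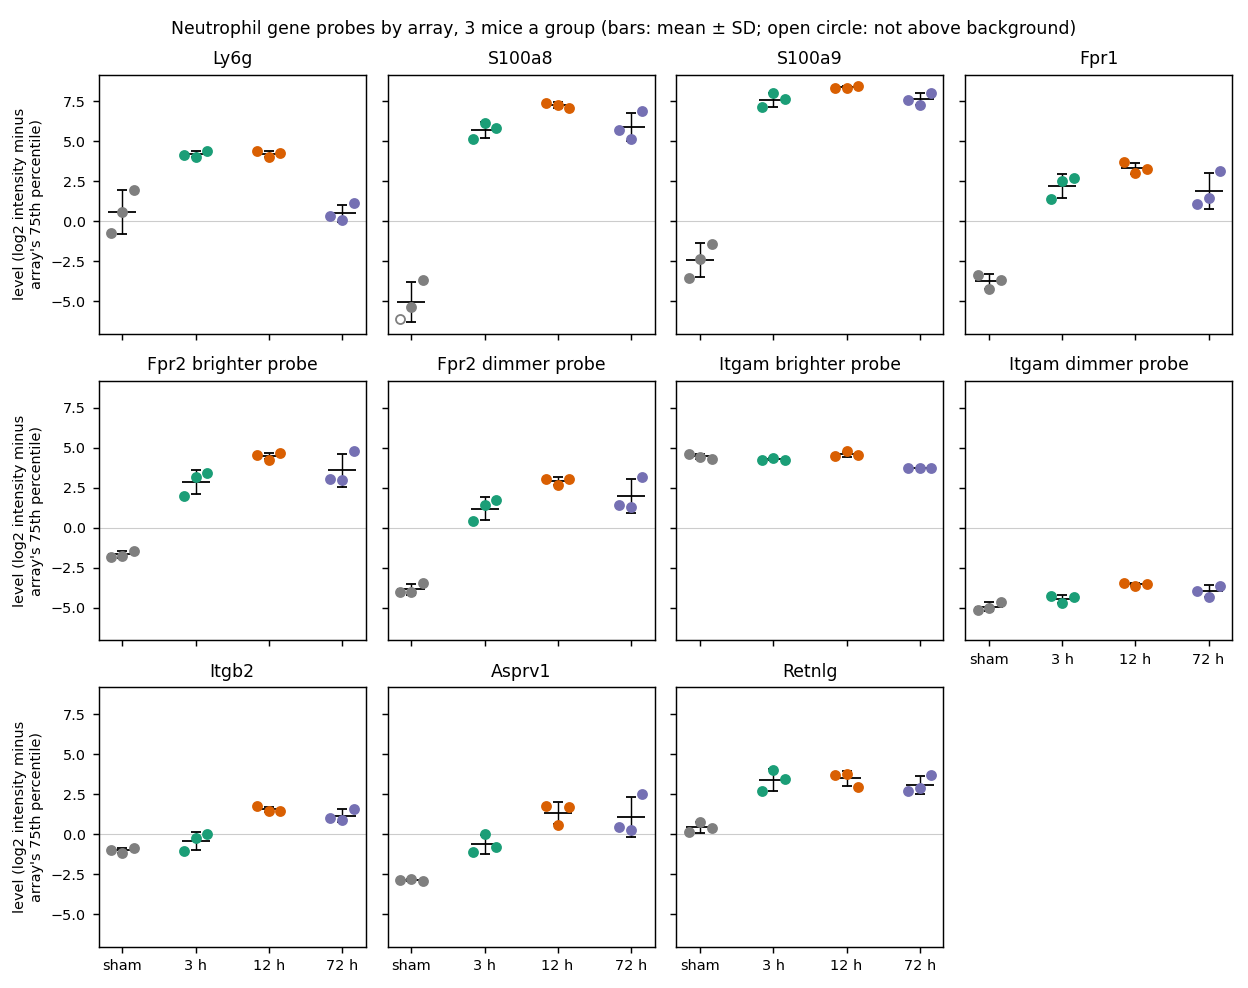
Level of each of the 11 probes (y axis, log2 intensity minus the array's 75th percentile, the same axis in all panels) in sham, 3 h, 12 h and 72 h cecum (x axis), 1 point per array with the mean and SD of 3. Ly6g was near 4 at 3 and 12 h and back to between 0.11 and 1.12 at 72 h, S100a8 and S100a9 stayed high at 72 h, and the brighter Itgam probe was flat until 72 h.

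**Figure D2:**
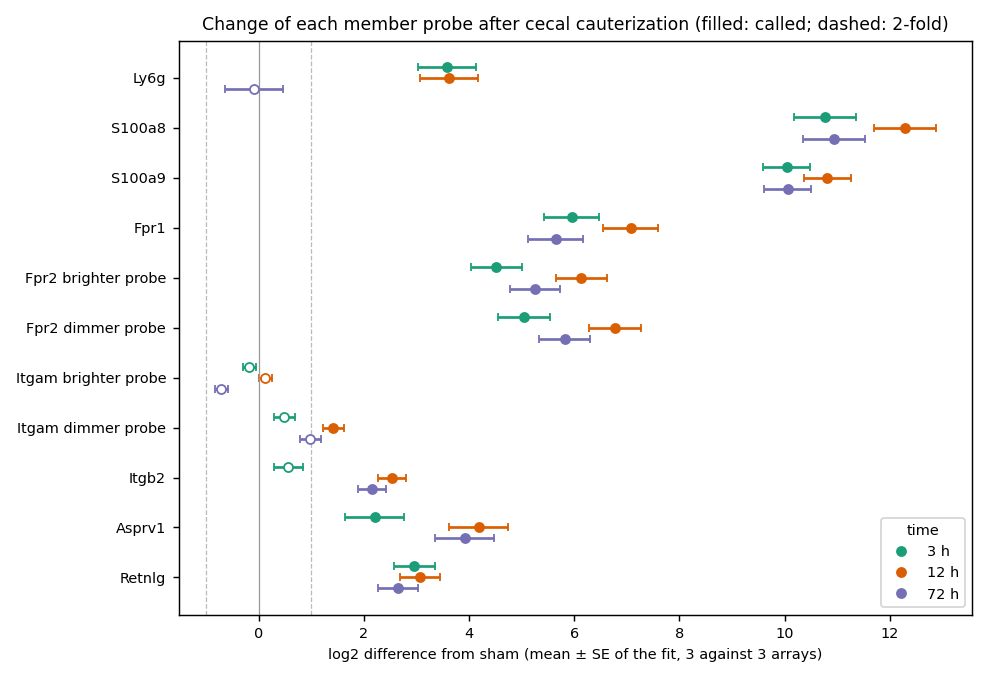
Log2 difference from sham at 3, 12 and 72 h (x axis) for each probe (y axis), with the SE of the fit; filled points were called and dashed lines mark 2-fold. S100a8 reached 12.29 and S100a9 10.82 at 12 h, whereas Ly6g went from 3.61 at 12 h to -0.09 at 72 h.

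Ly6g rose at 3 h, held that level at 12 h and was back in the sham range at 72 h. Its level in sham replicates 1, 2 and 3 was -0.76, 0.59 and 1.98 (mean 0.60 ± 1.37, SD, n = 3). At 3 h it was 4.16, 4.01 and 4.40, and at 12 h 4.37, 4.01 and 4.28. At 72 h it was 0.32, 0.11 and 1.12 (mean 0.51 ± 0.53, SD, n = 3). All 6 arrays of 3 and 12 h lay above all 6 arrays of sham and 72 h, the 3 h and 12 h groups overlapped each other, and the 72 h values lay inside the wide sham range. The difference from sham was 3.58 ± 0.55 (SE) at 3 h, a 12.0-fold rise with a limma adjusted p of 0.00188, and 3.61 at 12 h with a limma adjusted p of 0.00133. Without sham replicate 1 these were 2.90 and 2.93, and without sham replicate 3 they were 4.27 and 4.30. At 72 h the difference was -0.09 with a limma adjusted p of 0.92. From 12 to 72 h Ly6g fell by 3.70 ± 0.55 (SE), 13-fold, with a limma adjusted p of 0.00186. It was the 1 gene of 9 called lower between these times, when 2.94% of all gene names were called lower. The 12 h array that shared a slide with the 72 h arrays read 4.28, between the other 12 h arrays, and within that slide the difference was -3.76 with a limma adjusted p of 0.14, from 1 array against 3.

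The probe of Ly6g lies at chr15:74989023-74989082 on the plus strand of mm9, and the gene whose course was most like it was a predicted pseudogene 77.1 kb away, listed as ENSMUST00000089689 with its probe at chr15:75066100-75066159 on the minus strand. Both probes are shown because they share 28 bases, in capitals. Whether the probes read separate transcripts was not tested.
Ly6g: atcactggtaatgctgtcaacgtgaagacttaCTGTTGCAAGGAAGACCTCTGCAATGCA
ENSMUST00000089689: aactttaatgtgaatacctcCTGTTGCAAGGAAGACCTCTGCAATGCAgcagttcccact
The pseudogene's probe differed from sham by 2.76 at 3 h, 3.13 at 12 h and 0.04 at 72 h. Over 12 arrays, after centring each probe on its mean, its root mean square distance from Ly6g was 0.435 on the log2 scale, the smallest of 23816 gene names compared. The second was 9030619P08Rik at 0.553, a noncoding RNA of the same chromosome. Apart from the pseudogene, 3 other probes shared a run of 14 or more bases with the Ly6g probe. Those were the probes of Gm3952, Mtch2 and Slc25a46, at 14 bases each. So among the genes described next, only the pseudogene's probe shared such a run. Only probe sequences were compared, and whether the Ly6g probe also reads transcripts of those genes was not tested.

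The stretch of chromosome 15 around Ly6g holds other genes of the Ly6 family, which encode small lipid-anchored surface proteins, and many of them moved like Ly6g. The window of 300 kb on either side of the Ly6g probe was set after values of these genes had been seen. It held 19 other gene names, the pseudogene among them. Against sham, 9 of them were called higher at 3 h, 10 at 12 h and 1 at 72 h. Over all gene names the shares called higher were 3.14%, 3.95% and 4.5%. From 12 to 72 h, 9 fell past the threshold, where 2.94% of all gene names were called lower. The pseudogene is in each of these counts except the 1 at 72 h. Ly6a, the stem cell antigen Sca-1, was 2.23 above sham at 3 h, 2.97 at 12 h and 0.27 at 72 h, and fell by 2.71 from 12 to 72 h with a limma adjusted p of 0.00337. Ly6c1 and Ly6c2 encode the Ly6C antigens of monocytes and endothelium. They were 2.48 and 2.52 above sham at 12 h and fell by 2.43 and 2.5 from 12 to 72 h, with limma adjusted p-values of 0.00142 and 0.00139. The mean levels of their probes were 4.34 and 4.33 in sham, and 6.83 and 6.86 at 12 h. Whether these probes read separate transcripts was not tested. 2010109I03Rik, named Ly6g2 in RefSeq, lies 280.1 kb from Ly6g and fell by 3.64 with a limma adjusted p of 0.000158.

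Not every gene of the window moved. Ly6e, which is expressed in many tissues, differed from sham by 0.02 at 12 h, and Ly6i, 178.5 kb away, by 0.01. BC025446 was the 1 gene of the window called higher than sham at 72 h, by 1.26. Ly6f was 3.12 above sham at 12 h and its difference of -1.84 from 12 to 72 h missed the threshold with a limma adjusted p of 0.0511. Among the sham arrays, where Ly6g had an SD of 1.37, the SD was 1.11 for Ly6a, 0.83 for Ly6c1 and 0.97 for the pseudogene, and 0.39 for 2010109I03Rik, 0.14 for Ly6e and 0.04 for Ly6i.

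**Figure D3:**
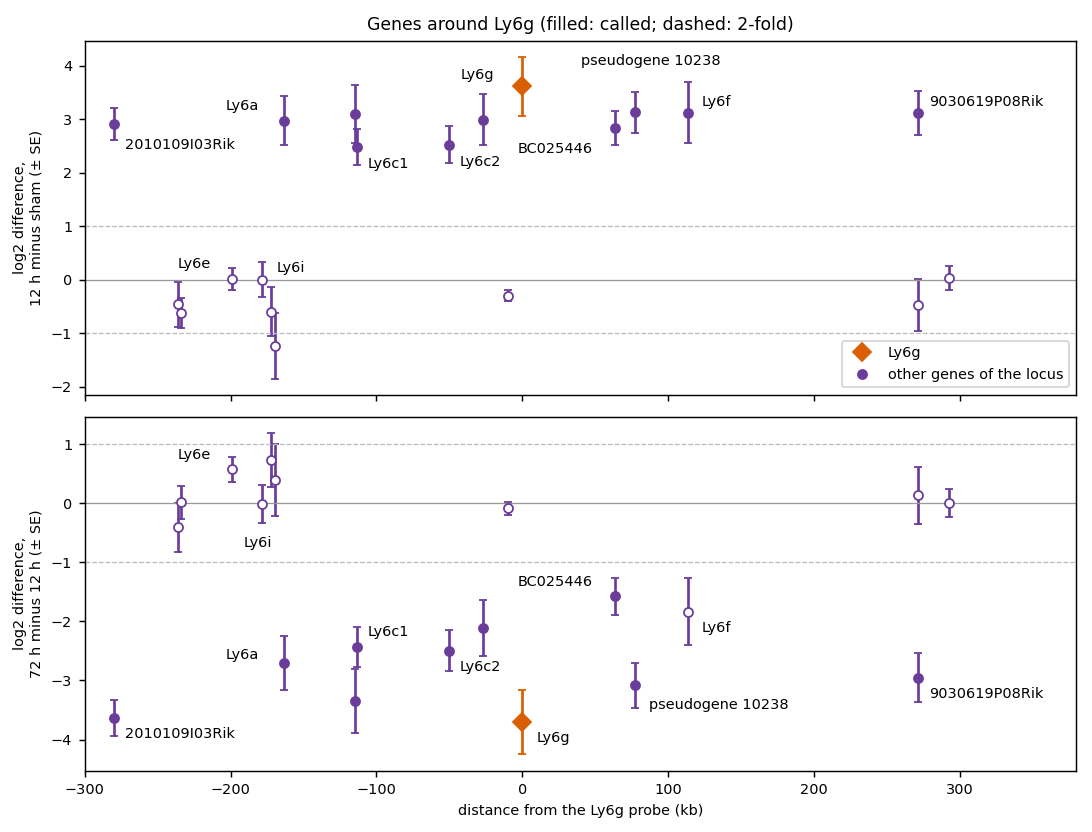
Log2 difference between 12 h and sham (upper panel) and between 72 h and 12 h (lower panel), with SE, against distance from the Ly6g probe in kb (x axis) for the 20 gene names of the window; filled points were called and dashed lines mark 2-fold. Ly6g and 10 neighbours lay between 2.48 and 3.61 in the upper panel, and the others lay near or below 0.

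Of 25 Ly6 family names measured across the genome, Ly6g left out, 8, 8 and 3 were called higher and 1, 4 and 4 lower at 3, 12 and 72 h. The 25 include Ly6a, Ly6c1, Ly6c2, Ly6e, Ly6f, Ly6i and 2010109I03Rik of the window above. All those called higher at 3 and 12 h lay in that window except Lypd3, Cd177 and Plaur. From 12 to 72 h, 2 were called higher and 8 lower, where 4.49% and 2.94% of all gene names were. Among the 8 were Ly6a, Ly6c1, Ly6c2 and 2010109I03Rik of the window. The median of the 25 was -0.27 against -0.12 over all gene names. Lypd3, which encodes an adhesion protein of epithelia, fell by 4.02 with a limma adjusted p of 5.87e-05 and was above background on 1 of 3 arrays of 72 h. Cd177, a neutrophil surface gene of this family, stayed up, at 1.31, 2.72 and 3.08 above sham. Plaur, the urokinase receptor, was 4.12, 4.8 and 3.45 above sham. From 12 to 72 h Plaur was called lower, at -1.35 with a limma adjusted p of 0.0364.

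S100a8 and S100a9 had the largest rises of the 9 genes at each of the 3 times, from low levels in sham. The S100a8 probe lies in the plus strand of mm9 at chr3:90473778-90473837 and is shown as the probe with the widest change of the set.
S100a8: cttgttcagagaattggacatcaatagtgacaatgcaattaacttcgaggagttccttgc
S100a8 read -6.10, -5.37 and -3.67 in sham, where replicate 1 was not above background. The 3 h arrays read 5.17, 6.15 and 5.85, those of 12 h 7.42, 7.25 and 7.07, and those of 72 h 5.67, 5.16 and 6.86. Every injured array lay above every sham array, and the 12 h arrays lay above those of 3 and 72 h. S100a8 stood 10.77, 12.29 and 10.95 above sham at 3, 12 and 72 h, each ± 0.59 (SE), with limma adjusted p-values of 8.88e-06, 3.38e-06 and 7.74e-06. The 12 h difference was 12.98 without sham replicate 3. With sham spots below background raised to the lowest measured signal it was 12.11, and with a background correction that adds an offset of 50 it was 9.47.

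S100a9, whose probe is at chr3:90496573-90496632 on the minus strand, read -3.52, -2.37 and -1.42 in sham. The 3 h arrays read 7.14, 8.0 and 7.65, those of 12 h 8.34, 8.36 and 8.43, and those of 72 h 7.59, 7.26 and 8.02. The 12 h arrays were again above all others, within 0.09 of each other. The difference from sham was 10.04 ± 0.44 (SE) at 3 h, 10.82 at 12 h and 10.06 at 72 h, or 1051-fold, 1802-fold and 1067-fold, with limma adjusted p-values of 3.17e-06, 2.45e-06 and 4.43e-06. Neither gene was called between 12 and 72 h. S100a8 stood at 39.3% and S100a9 at 59.2% of its 12 h intensity at 72 h, with differences of -1.35 (limma adjusted p = 0.154) and -0.76 (limma adjusted p = 0.287), although in both genes the groups did not overlap.

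Each gene had the other nearest to it among the 9, at a root mean square distance of 0.593, and for S100a8 no other of the 23816 gene names was nearer. Next to S100a8 came the chemokine gene Cxcl2 at 0.779 and the stefin-like gene Gm5483 at 0.80. The rise of S100a8 from sham to 12 h was 1.48 ± 0.25 (SE) larger than that of S100a9. The 3 arrays of each group did not overlap, and the two-sided exact permutation p was 0.1, the smallest that 3 against 3 arrays allow. With the offset of 50 the sign turned, to -0.25.

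Of 15 other S100 genes measured, 4, 4 and 1 were called higher and 0, 1 and 3 lower at 3, 12 and 72 h. At 72 h, 4.5% of all gene names were called higher and 4.4% lower. The median of the 15 at 12 h was 0.23, against -0.04 for all gene names. S100a14, an epithelial member, was 2.05, 1.58 and 0.99 above sham, the last with a limma adjusted p of 0.0374 but under 2-fold. S100a11 was 1.61, 2.06 and 0.87 above sham. S100a4, a gene of fibroblasts and macrophages, differed by 0.05 at 3 h and was 1.90 higher at 12 h and 2.32 at 72 h. Of 10 genes for receptors of calprotectin and their adaptors, 3, 5 and 4 were called higher at 3, 12 and 72 h. Cd14, the endotoxin co-receptor, was 3.34, 4.46 and 3.03 above sham, Tlr4 0.26, 1.42 and 1.04, and Ager, the receptor for advanced glycation end products, differed by 0.13, 0.16 and -0.17 and was not called.

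The start regions of S100a8 and S100a9 are printed because these genes moved together and furthest. They are RefSeq sequence of GRCm38.p6, 250 bases before to 50 after the start, with capitals at the motifs found in them among 8 searched on both strands.
S100a8, chr3:90668821-90669120, plus strand: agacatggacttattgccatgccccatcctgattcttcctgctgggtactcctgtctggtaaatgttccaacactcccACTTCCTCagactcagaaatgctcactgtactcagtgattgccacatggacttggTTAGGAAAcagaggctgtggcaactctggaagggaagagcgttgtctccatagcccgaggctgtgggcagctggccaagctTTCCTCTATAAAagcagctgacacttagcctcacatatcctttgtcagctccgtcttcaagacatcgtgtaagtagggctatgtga
S100a9, chr3:90695672-90695971, minus strand: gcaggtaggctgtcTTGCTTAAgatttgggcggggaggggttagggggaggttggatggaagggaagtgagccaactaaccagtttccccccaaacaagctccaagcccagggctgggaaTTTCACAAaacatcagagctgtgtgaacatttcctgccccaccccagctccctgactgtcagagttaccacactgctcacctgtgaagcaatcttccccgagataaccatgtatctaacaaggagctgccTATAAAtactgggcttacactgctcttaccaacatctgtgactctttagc
In S100a8 the capitals mark GAGGAAGT, TTNNGNAA, AGAGGAA and TATAAA, the last 2 overlapping by 1 base, and in S100a9 they mark TTNNGNAA at 2 places and TATAAA. GAGGAAGT and AGAGGAA are forms of the PU.1 motif and share letters, and TTNNGNAA is a loose form of the C/EBP motif.

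The table held 9 start regions for 8 of the 9 genes, 2 of them for Ly6g. The Ly6g regions, chr15:75155011-75155310 and chr15:75155079-75155378, overlap, so a motif in their common part is counted in both. TTNNGNAA was in 8 of the 9 regions, all but that of Asprv1, and in 40.68% of all 32851 regions of this length. TATAAA was in 6 of the 9, those of Ly6g, S100a8, S100a9, Fpr1 and Fpr2, and in 13.62% of all. GAGGAAGT was in 3 of the 9 (3.2% of all) and AGAGGAA in 3 (10.41% of all). A loose form of the NF-kB motif was in 4 (50.79% of all) and TTCNNNGAA, a form of the STAT motif, in 1 (8.3% of all). Counted by gene, TTNNGNAA was in 7 of the 8 genes, TATAAA in 5 and GAGGAAGT in 2. AGAGGAA was in 3 genes, the NF-kB form in 3 and TTCNNNGAA in 1. The stricter C/EBP form TTGCNNAAT and the AP-1 form TGANTCA were in none of the 9, and in 2.4% and 7.81% of all regions. Letters in such a window are a description and do not show that a factor binds there.

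Both formyl peptide receptor genes were called higher than sham at all 3 times, with the highest mean at 12 h. Fpr1, with its probe at chr17:18013609-18013668 on the minus strand, read -3.37, -4.24 and -3.64 in sham. The 3 h arrays read 1.37, 2.54 and 2.70, those of 12 h 3.69, 3.01 and 3.28, and those of 72 h 1.09, 1.45 and 3.15. Sham lay apart from all other arrays, and 72 h replicate 3 lay inside the 12 h range while the other 72 h arrays lay below it. Fpr1 was above sham by 5.95 ± 0.53 (SE), 7.07 and 5.65 at 3, 12 and 72 h, or 61.9-fold, 135-fold and 50.1-fold, with limma adjusted p-values of 0.000104, 2.59e-05 and 0.000118. The difference from 12 to 72 h was -1.43 with a limma adjusted p of 0.0947. Without 72 h replicate 3 it was -2.06 with a limma adjusted p of 0.0104, and the 72 h difference from sham was 5.02.

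Fpr2 was read by 2 probes, at chr17:18030798-18030857 and chr17:18030540-18030599 on the plus strand. The brighter read -1.80, -1.74 and -1.42 in sham, and 2.01, 3.17 and 3.43 at 3 h. Its 12 h arrays read 4.52, 4.25 and 4.66 and its 72 h arrays 3.03, 2.98 and 4.79. All 12 h arrays lay above all 3 h arrays, and 72 h replicate 3 was the highest of the 12. The brighter probe was above sham by 4.52 ± 0.48 (SE), 6.13 and 5.26, or 23.0-fold, 70.1-fold and 38.2-fold, with limma adjusted p-values of 0.000281, 3.47e-05 and 0.000107. The dimmer probe differed from sham by 5.04, 6.77 and 5.82, so the probes gave the same order of times. From 3 to 12 h the brighter probe differed by 1.61, with a limma adjusted p of 0.0688, and the dimmer by 1.73, with a limma adjusted p of 0.0558. Both passed the threshold without 72 h replicate 3, with limma adjusted p-values of 0.0197 and 0.0151. From 12 to 72 h the difference was -0.88 with a limma adjusted p of 0.256, and without 72 h replicate 3 it was -1.47 with a limma adjusted p of 0.0239, and the 72 h difference from sham was 4.66.

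From sham to 12 h Fpr1 rose by 0.94 ± 0.32 (SE) more than Fpr2, with no overlap and an exact permutation p of 0.1, and the offset of 50 turned the sign, to -0.31. The gene nearest in course to Fpr1 was Mrgpra2b, a G protein-coupled receptor of neutrophils, at a root mean square distance of 0.365. Nearest to the brighter Fpr2 probe were Mcemp1 (0.426) and the decoy receptor gene Il1r2, and nearest to the dimmer was Gpr84 (0.305), a medium-chain fatty acid receptor.

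The other receptors of the family were dim. Of Fpr3, Fpr-rs3, Fpr-rs4 and Fpr-rs6, none was called at 3 h, 2 were called higher at 12 h and 1 at 72 h. Fpr-rs6 was above background on no sham array and on 3 of 3 arrays at 12 and 72 h, where it was at least 2.84-fold and 2.25-fold higher. Of 9 genes for ligands of these receptors, 3, 6 and 4 were called higher at 3, 12 and 72 h, with a median of 1.46 at 12 h. Saa3, an acute phase protein, was 4.31, 5.66 and 6.13 above sham. Anxa1, whose product acts on FPR2 to limit inflammation, was 2.21, 2.5 and 1.86 above sham. Camp, the cathelicidin gene, was 3.19 above sham at 12 h and 2.24 at 72 h.

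Itgb2 was not called at 3 h and rose between 3 and 12 h. Its probe at chr10:77027978-77028037 on the plus strand read -1.0, -1.15 and -0.83 in sham and -1.04, -0.23 and -0.01 at 3 h. It read 1.75, 1.45 and 1.43 at 12 h and 1.0, 0.89 and 1.60 at 72 h. The sham and 3 h groups overlapped, and all arrays of 12 and 72 h lay above them. The difference from sham was 0.57 ± 0.27 (SE) at 3 h with a limma adjusted p of 0.172, 2.54 at 12 h (5.82-fold, limma adjusted p = 0.000184) and 2.16 at 72 h (4.47-fold, limma adjusted p = 0.000616). Itgb2 was the 1 gene of 9 called between 3 and 12 h, a difference of 1.97 with a limma adjusted p of 0.00298, where 1.86% of all gene names were called higher. Nearest in course to Itgb2 were 3 signalling genes of leukocytes, Ncf4 of the phagocyte oxidase at 0.157, the adaptor gene Fyb at 0.211 and the adaptor gene Lcp2 at 0.223.

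The 2 probes of Itgam disagreed. The brighter read 4.64, 4.40 and 4.32 in sham and 4.26, 4.35 and 4.23 at 3 h. Its 12 h arrays read 4.45, 4.78 and 4.52 and its 72 h arrays 3.74, 3.73 and 3.75. It was flat over the first 3 groups and then lower on all 3 arrays of 72 h. The differences from sham at 3, 12 and 72 h were -0.17 ± 0.12 (SE), 0.13 and -0.71, the last with a limma adjusted p of 0.00288 but under 2-fold. The dimmer probe, with an intensity of 7.99 to 29.9 and well above background on all 12 arrays, read -5.16, -5.03 and -4.63 in sham and -4.29, -4.71 and -4.35 at 3 h. It read -3.43, -3.61 and -3.51 at 12 h, and its 72 h arrays read -3.93, -4.33 and -3.62. Its 12 h arrays were above all others and its sham and 3 h arrays overlapped. It differed from sham by 0.49 ± 0.20 (SE) at 3 h, 1.42 at 12 h (2.68-fold, called, limma adjusted p = 0.000927) and 0.98 at 72 h (1.97-fold, limma adjusted p = 0.00781). The offset of 50 brought the dimmer probe's 12 h difference to 0.23 and it was not called. Of the other 8 genes, Itgb2 was nearest in course to both Itgam probes, at a root mean square distance of 0.631 from the dimmer and 1.22 from the brighter. Counted by the dimmer probe, a choice made after the values were seen, 9 of 9 genes were called higher at 12 h.

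The stretches printed next are 30 of the 60 bases of each Itgam probe and of the probes of the 3 genes nearest in course to the brighter one, shown because the brighter probe and these 3 hold a run of CA repeats, in capitals, and the dimmer holds none. The positions in mm9 are those of the whole probes.
Itgam brighter, chr7:135261755-135261814, plus strand: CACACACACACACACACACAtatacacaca
Itgam dimmer, chr7:135212140-135212199, plus strand: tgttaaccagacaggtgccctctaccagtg
Snap23, chr2:120425750-120425809: agatACACACACACACACACACACACatga
Mcidas, chr13:113790543-113790602: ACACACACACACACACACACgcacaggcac
Rmi1, chr13:58511386-58511445: cagaggACACACACACACACACACgtacta
Snap23 (membrane fusion), Mcidas (multiciliated cells) and Rmi1 (DNA repair) have unrelated functions and lay at root mean square distances of 0.0903, 0.101 and 0.104 from the brighter Itgam probe.

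The brighter Itgam probe shared a run of 14 or more bases with 141 probes of other genes, with a longest run of 24, against 0 to 5 probes for the other members. On the array 29 probes, this one included, held 10 or more CA repeats in a row. Another of them was the probe by which Ly96 was counted among the calprotectin receptors and adaptors, at -0.996 from sham at 72 h. All 29 were above background on every array and below sham at 72 h, by -1.06 to -0.71 with a median of -0.93, and 5 of them were called lower. At 12 h they lay between -0.12 and 0.13, and none was called at 3 or 12 h. The 46 probes with 10 or more TG repeats, the opposite strand of the same repeat, had a median of 0.59 at 72 h and none was called. The part of the repeat in the reading of the brighter Itgam probe was not tested.

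**Figure D4:**
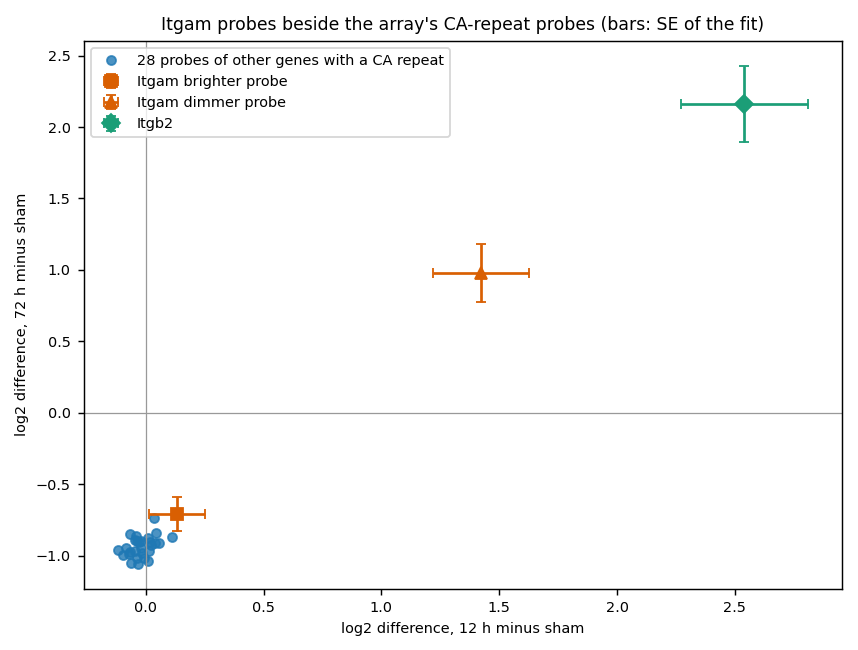
Log2 difference from sham at 72 h (y axis) against that at 12 h (x axis) for both Itgam probes and Itgb2, with SE, and for the 28 probes of other genes that hold 10 or more CA repeats. The brighter Itgam probe (0.13 and -0.71) lies beside the CA-repeat probes, and the dimmer (1.42 and 0.98) lies between them and Itgb2 (2.54 and 2.16).

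Of the other 4 chains of beta2 integrins and their relatives, none was called at 3 h, 1 was called higher at 12 h and 2 at 72 h. Itgal, which encodes CD11a of LFA-1, was 0.09, 1.87 and 1.42 above sham, and Itgad, above background on no sham array and on 3 of 3 arrays at 72 h, was at least 3.53-fold higher at 72 h. Itgax and Itgb2l were not called. Of 26 genes for integrin activation and integrin ligands, 5, 11 and 11 were called higher at 3, 12 and 72 h and none lower, with medians of 0.40, 0.83 and 0.69. Fgr, a Src family kinase gene that acts below beta2 integrins in phagocytes, was 1.67, 3.36 and 2.75 above sham. Icam1, an endothelial ligand of Mac-1 and LFA-1, was 2.24, 2.13 and 1.30 above sham.

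Asprv1 was called higher than sham at all 3 times, with its lowest mean of the injured groups at 3 h. Its probe at chr6:86579351-86579410 on the plus strand read -2.83, -2.81 and -2.90 in sham and -1.12, -0.01 and -0.78 at 3 h. It read 1.77, 0.55 and 1.69 at 12 h and 0.47, 0.24 and 2.5 at 72 h. Sham, 3 h and 12 h did not overlap, and the 72 h arrays spread on either side of the 12 h range. The difference from sham was 2.21 ± 0.56 (SE) at 3 h (4.62-fold, limma adjusted p = 0.0218), 4.18 at 12 h (18.2-fold, limma adjusted p = 0.000668) and 3.92 at 72 h (15.1-fold, limma adjusted p = 0.00127). The call at 3 h was lost on leaving out any 1 sham array, 3 h replicate 2 or 3 h replicate 3, with limma adjusted p-values of 0.0504 to 0.0743, and with the offset of 50, with one of 0.0853. From 3 to 12 h the difference was 1.98 with a limma adjusted p of 0.0572, and it passed the threshold without 72 h replicate 3, with one of 0.0132. From 3 to 72 h it was 1.71 with a limma adjusted p of 0.0414, lost in 10 of 25 alternatives. These were leaving out any 1 sham array, 3 h replicate 1 or 3, or 72 h replicate 3, quantile normalization (limma adjusted p = 0.0593), the replicate block (0.0507), fitting only the 2 groups (0.088) and the slide as a block (0.521). Without 72 h replicate 3 the 72 h difference from sham was 3.20.

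Because Asprv1 is known from the epidermis, epidermal genes were counted beside it. Of 15, 3, 2 and 3 were called higher at 3, 12 and 72 h and 1 lower at 72 h, with medians of 0.29, 0.02 and -0.14. Krt14, a keratin of basal cells, was 1.15, 2.03 and 2.99 above sham, and Lor, the loricrin gene, 1.91, 1.21 and 0.27. The summed linear level of the list, in units of the 75th percentile, was 1.64 to 1.73 in sham, 2.26 to 2.43 at 3 h, 1.77 to 2.11 at 12 h and 2.41 to 4.0 at 72 h. The part of epidermal cells in the Asprv1 values was not tested. Of 8 genes of related aspartic proteases, none was called at any of the 3 times by limma, while 2, 2 and 5 had an unadjusted p under 0.05 at 3, 12 and 72 h. The genes nearest in course to Asprv1 were Igsf6 (0.314), a receptor gene of myeloid cells, 2210406H18Rik and Tarm1.

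Retnlg was up by 3 h and was not called between any of the later times. Its probe at chr16:48874468-48874527 on the plus strand read 0.12, 0.78 and 0.38 in sham and 2.70, 4.03 and 3.44 at 3 h. It read 3.72, 3.79 and 2.97 at 12 h and 2.68, 2.85 and 3.69 at 72 h. All injured arrays lay above sham, and the 3 injured groups overlapped. Retnlg was above sham by 2.96 ± 0.38 (SE), 3.07 and 2.65 in turn, or 7.80-fold, 8.37-fold and 6.27-fold, with limma adjusted p-values of 0.000774, 0.000447 and 0.00134. It differed by 0.10 from 3 to 12 h (limma adjusted p = 0.887) and by -0.42 from 12 to 72 h (limma adjusted p = 0.504). Of the other 3 resistin-like genes, Retnla, a gene of alternatively activated macrophages and adipose tissue, fell by 2.07 at 12 h and 4.17 at 72 h, and Retn and Retnlb were not called. Nearest in course to Retnlg was Ier3 (0.346), an immediate early gene.

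Set side by side, the genes kept different shares of their 12 h intensity. From the mean log2 levels and as a percentage of the intensity at 12 h, Ly6g was at 7.67% at 72 h, Fpr1 at 37.2%, S100a8 at 39.3%, Fpr2 at 54.5%, S100a9 at 59.2%, Retnlg at 75%, Itgb2 at 76.9% and Asprv1 at 83.1%. At 3 h, Ly6g was at 97.8% and Retnlg at 93.2% of their 12 h intensity, and Itgb2 and Asprv1 at 25.5% and 25.4%. Without 72 h replicate 3, a setting chosen after the values were seen, the percentages at 72 h were 6.22 for Ly6g, 24.1 for Fpr1, 28.2 for S100a8, 36.1 for Fpr2, 50.7 for Asprv1, 51.6 for S100a9, 60.5 for Retnlg and 66.1 for Itgb2, so the order of the genes that kept most rested on that array. The change of Ly6g from 12 to 72 h was set against that of each other gene within the same arrays. It was lower by 2.28 ± 0.38 (SE) against Fpr1, the least, and by 3.44 ± 0.50 (SE) against Asprv1, the most, and lay 3.32 ± 0.13 (SE) below that of Itgb2. In all 8 pairs the 12 h and 72 h arrays did not overlap, and the exact permutation p was 0.1, or 0.1 after adjustment over the 8. All 8 pairs use the same Ly6g values, and Itgam was read by its brighter probe. The fall of Ly6g was known from earlier results of these data, so the pairs only describe how the genes differ. Ly6g was farther from its nearest member in course, Retnlg, than any of the others, at a root mean square distance of 1.52.

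Between 3 and 72 h, 2 genes were called higher, Itgb2 by 1.59 (limma adjusted p = 0.00187) and Asprv1 by 1.71, where 6.26% of all gene names were called higher. Ly6g was called lower, by 3.67 with a limma adjusted p of 0.000984, where 5.25% of all were. With the slide as a block none of the 3 was called, with limma adjusted p-values of 0.0921 for Itgb2, 0.521 for Asprv1 and 0.0884 for Ly6g. Arrays also moved as wholes. The 72 h replicate 3 array was the highest of its group in 11 of 11 probes and replicate 2 the lowest in 9, 3 h replicate 1 was the lowest in 8, and sham replicate 1 was the lowest and sham replicate 3 the highest in 7.

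Most of the other genes of mature neutrophils were called higher too. Of 63, 40 were called higher and 1 lower at 3 h, 53 higher at 12 h and 50 higher at 72 h, with medians of 1.91, 3.35 and 3.02. Cxcr2, the receptor for neutrophil chemokines, was above background on no sham array and was at least 60.2-fold, 216-fold and 124-fold higher at the 3 times. Clec4d, a C-type lectin receptor gene of myeloid cells, was 7.70, 8.91 and 8.26 above sham. The 1 gene called lower was Cebpe, a transcription factor of late granulocyte maturation, by -1.29 at 3 h, and it was 1.57 higher at 12 h. Csf3r, the receptor for granulocyte colony-stimulating factor, differed by -0.46, -0.37 and -0.41 and was not called. The probe it was counted by was bright in every group, at a mean of 5.85 in sham and 5.38, 5.48 and 5.44 at 3, 12 and 72 h. Whether that probe reads Csf3r alone was not tested. From 12 to 72 h, 13 of the 63 were called lower and none higher, with a median of -0.38. Slfn4 fell the most of them, by 2.12 with a limma adjusted p of 0.0104.

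Granule genes, which are transcribed at earlier stages of granulocyte maturation, are given by stage. Of 10 primary granule genes, none was called by limma at 3 h (2 at an unadjusted p under 0.05), 1 was called lower at 12 h and 1 higher at 72 h, with medians of 0.00, 0.02 and 0.28. These medians rest partly on dim readings. Above background on no array of the group were 3 of the 10 in sham, 4 at 3 h, 4 at 12 h and 3 at 72 h. Mpo, the myeloperoxidase gene, was the one higher at 72 h, by 2.97, and Elane, the elastase gene, differed by -0.06, 0.24 and 0.31. Of 10 secondary granule genes, 4, 8 and 7 were called higher, with medians of 2.01, 4.83 and 2.20, and 5 were called lower from 12 to 72 h. Ngp fell by 5.10 with a limma adjusted p of 0.00372 and was above background on 1 of 3 arrays at 72 h. Lcn2, a siderophore-binding protein that epithelium also makes, was 5.99, 8.90 and 6.58 above sham and fell by 2.32 from 12 to 72 h with a limma adjusted p of 0.0256.

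**Figure D5:**
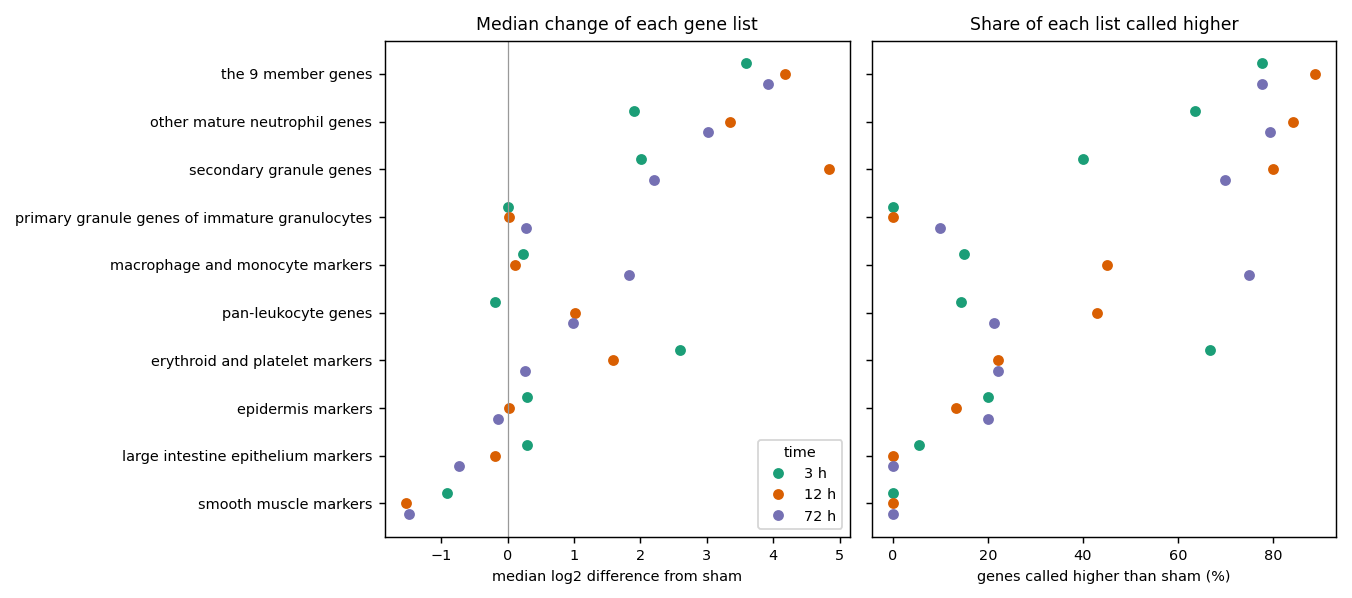
Median log2 difference from sham at 3, 12 and 72 h for the 9 genes and for selected gene lists (left panel), and the percentage of each called higher than sham (right panel). The 9 genes and the other mature neutrophil genes were at 4.18 and 3.35 at 12 h, primary granule genes at 0.02 and smooth muscle markers at -1.53. Of the 10 primary granule genes, 4 were above background on no 12 h array.

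Several members are also expressed by monocytes, so markers of other cells were read on the same arrays. Of 20 macrophage and monocyte markers, 3 were called higher and 2 lower at 3 h, 9 higher and 1 lower at 12 h, and 15 higher at 72 h, and from 12 to 72 h 11 were called higher and 1 lower. The median of the 20 differences from sham was 0.24, 0.11 and 1.83. Their summed linear level was 43.9 to 71.3 in sham, 111 to 136 at 3 h, 149 to 164 at 12 h and 125 to 143 at 72 h, but 1 gene, the Ly6g neighbour Ly6c2, carried most of it at 3 and 12 h. Without Ly6c2 the sum was 32.3 to 33.9 in sham, 26.7 to 30.01 at 3 h, 39.3 to 43.6 at 12 h and 109 to 123 at 72 h. Arg1, above background on no sham array, was at least 13.4-fold, 92.5-fold and 298-fold higher, and Spp1 was 4.40 higher at 72 h. Of 14 pan-leukocyte genes, 2, 6 and 3 were called higher, and Ptprc, which encodes CD45, differed by -0.01, 1.33 and 0.99. The part of macrophages and monocytes in the values of Itgam, Itgb2, Fpr1 and Fpr2 was not tested.

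Markers of other leukocytes were read as well. None of 9 eosinophil markers was called by limma at 3 or 12 h, where 1 and 2 had an unadjusted p under 0.05, and 2 were called higher at 72 h, with Epx above background on no array. Of 11 mast cell and basophil markers, 1 was called higher at 3 h, 1 lower at 12 h and 4 higher at 72 h. Of 10 dendritic cell markers, 2, 1 and 0 were called higher, and of 8 natural killer cell markers 1 was called higher and 1 lower at both 12 and 72 h. Of 10 T cell markers 1 was called lower at 3 h and none at the later times, and of 10 B cell and plasma cell markers none was called by limma at any time (1, 0 and 0 at an unadjusted p under 0.05), with medians of -1.29, -0.03 and -1.14.

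Genes of blood and of the cecal wall moved on the same arrays. Of 9 erythroid and platelet genes, 6, 2 and 2 were called higher. Hbb-b1, a beta globin gene, was 3.70 above sham at 3 h, and the summed level of the list was 8.44 to 14.5 in sham, 56.7 to 198 at 3 h and 20.5 to 36.6 at 72 h. Without Hba-a1, an alpha globin gene and the brightest of the list, the sum was 3.31 to 3.73 in sham, 11.2 to 18.5 at 3 h and 17.6 to 23.4 at 72 h. Of 10 smooth muscle markers, 5, 10 and 9 were called lower, with medians of -0.92, -1.53 and -1.48. Of 18 markers of large intestine epithelium, 1 was called higher at 3 h, 2 lower at 12 h and 7 lower at 72 h. The part of blood in the tissue, and of the changed share of muscle and epithelium, in the values of the 9 genes was not tested.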

How the data were processed

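Total RNA of mouse cecum was labelled with Cy3 and hybridised to 12 one-colour Agilent SurePrint G3 Mouse GE v2 arrays. Per the file headers, the deposited intensity values came from Agilent Feature Extraction 11.5.1.1, with probe positions in mm9. A second deposited file holds log2 values that the authors normalised to the 75th percentile and centred on each probe's median, and was used here as an alternative only.

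The deposited processed intensity of each non-control spot was taken as log2 minus the array's 75th percentile (263 to 375 intensity units). The 53 to 152 outlier spots per array were removed and spots of a probe averaged. limma 3.58.1 in R 4.3.3 fitted 4 group means to 56605 probes (lmFit, eBayes), with Benjamini-Hochberg adjustment. A call needed more than 2-fold and an adjusted p under 0.05. Differences between members used exact two-sided permutation tests. The procedure was checked on simulated data. Figures and sequence searches used Python 3.11.15. Mice were grouped by the labels. The limma p-values set a difference of group means against the spread between arrays within groups, which does not cover a difference between slides. The 3 arrays per group limit the precision.

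The named genes were all members, the 3 genes nearest in course to each by root mean square distance, and examples of gene lists. A probe above background on no array of a group gave only a bound. The members and lists were chosen with earlier results of these data known. Alternatives were other normalisations, background corrections, filters, blocks and left-out arrays.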

Additional observations from a re-analysis of the deposited data

Results flagged for a closer look

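Differences between time points that passed the test of the difference itself were seen in 3 of the 9 genes. Ly6g was lower at 72 h than at 12 h by -3.70 and lower than at 3 h by -3.67 on the log2 scale, with limma adjusted p-values of 0.00186 and 0.000984. Itgb2 was higher at 12 h than at 3 h by 1.97 and higher at 72 h than at 3 h by 1.59, with limma adjusted p-values of 0.00298 and 0.00187. Asprv1 was higher at 72 h than at 3 h by 1.71, with a limma adjusted p of 0.0414. With the slide as a block the 3 differences between 3 and 72 h were no longer called, with limma adjusted p-values of 0.0884 for Ly6g, 0.0921 for Itgb2 and 0.521 for Asprv1. Within slide 2, from 1 array against 3, Ly6g at 72 against 12 h had a limma adjusted p of 0.14. In each case both times were set against the same sham arrays, so the difference between times is the difference between their effects. Groups of 3 arrays were too small to search for single outlying arrays.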

How the results depend on the processing

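The 72 h arrays shared a slide with 1 array of another group. With the slide as a block, 0 genes were called between 3 and 72 h, where Ly6g differed by -3.76 (adjusted p = 0.0884), Itgb2 by 1.77, Asprv1 by 1.18, S100a9 by -0.0602 and Retnlg by 0.47. Asprv1 at 72 h was 3.38 above sham (adjusted p = 0.124). Between 12 and 72 h the block and slide 2 alone both gave Retnlg 0.11, and slide 2 alone gave 0 calls. The replicate numbers are not stated to pair mice, and deviations of same-numbered arrays correlated at -0.162 to 0.0866. With the replicate block, 2 genes were called between 3 and 12 h in place of 1 (2.98% of all genes called in either direction). Called higher between 3 and 12 h were 4 genes with normexp (1.57% of all), 3 with only probes above background (5.62%), 3 with a floor on dim spots (3.16%), 3 with trend and robust settings (3.75%) and 2 when only those groups were fitted (2.3%). Called lower between 12 and 72 h were 3 genes with normexp (2.88%) and 2 with no fold threshold (18.2%). All these percentages count genes called in either direction, while the member genes were counted in the named direction. Leaving out 1 array gave 1 to 3 calls for both comparisons. Normexp gave -0.25 for S100a8 minus S100a9 and -0.31 for Fpr1 minus Fpr2, and for the dimmer Itgam probe 0.00 (-0.0026) at 72 h against sham and -0.15 against 3 h. The mean of both Itgam probes was 0.16 at 3 h and 0.14 at 72 h. Differences that were not called changed sign in places when 1 array was left out. Those ranged from -0.770 to 0.601 for Ly6g at 72 h against sham (0.0102 without 72 h replicate 1, 0.114 without replicate 2), from -0.0591 for Ly6g at 12 against 3 h (-0.0423 without 12 h replicate 1), from -0.245 to 0.423 for Retnlg at 12 against 3 h (-0.0121 and -0.0476 without 12 h replicates 1 and 2) and from -0.661 to 0.00755 at 72 against 3 h. At 72 against 3 h they ranged from -0.305 to 0.544 for S100a8 (-0.103 without 3 h replicate 1), from -0.206 to 0.224 for S100a9 (-0.176 without 72 h replicate 3) and from -0.934 to 0.0987 for Fpr1, and at 72 against 12 h from -0.981 to 0.147 for Asprv1 (0.0333 without 72 h replicate 1). The cause was not tested. Low signals limit S100a8 in sham and the dimmer Itgam probe.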
